A study of Mus musculus with 18 samples.

Results

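The lysosome and V-ATPase genes described here are 43 genes that encode regulators of lysosomal transcription, a lysosomal cation channel, membrane proteins, proteases, other hydrolases and cofactors of the lysosome, and subunits of its proton pump, the vacuolar ATPase (V-ATPase). They were picked by gene symbol from the 62197 entries of the gene table. All 43 were found, and all 43 were among the 17875 genes tested, which reached 10 normalized counts (reads divided by a size factor for the library) in 3 or more libraries.

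Lysosomes digest proteins, lipids and sugars in an acidic lumen. The V-ATPase keeps this lumen acidic, with a cytosolic V1 part that hydrolyses ATP and a membrane-embedded V0 part that carries protons, and in dendritic cells (DCs) its activity and that of the lysosomal proteases shape how antigens are cut for presentation. TFEB, TFE3 and MITF are related transcription factors that bind E-box motifs in promoters of lysosomal genes, and nutrient signalling at the lysosomal surface controls how much of them reaches the nucleus.

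The data are bulk RNA-seq of bone marrow-derived DCs in 6 conditions, with 3 strand-specific libraries of polyadenylated RNA each and 18 in total. The study asked how confinement changes gene expression in immature DCs and whether the lipid-metabolizing enzyme cPLA_2_, encoded by *Pla2g4a*, is needed for it. All cells came from mice of 6 to 8 weeks on a C57BL/6 background and were grown for 10 days with a supernatant that contains GM-CSF. cPLA_2_ KO DCs were from mice with a conditional *Pla2g4a* allele deleted by *Itgax-cre*, which is driven by the promoter of the CD11c gene, so that deletion is limited to cells in which this promoter is active. cPLA_2_ WT DCs were from littermate or age-matched mice, and whether these carried the conditional allele or the *cre* is not given in the sources used here. Nonconfined cells were collected directly when the culture ended and, by their titles and treatment labels, were untreated. The submitters' treatment text describes LPS for every sample, and the titles and labels were followed here. Confined cells were held at a height of 3 µm and lysed 4 h after confinement began. LPS cells, so named below, were not confined, received 100 ng/ml lipopolysaccharide (LPS) for 30 min by the sample labels (the study's methods give a slightly shorter pulse), were washed and were collected the next day. The study calls its replicates biological, but the sources used here do not tie a library to a mouse, so the p-values measure only the spread between these libraries.

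The authors deposited the gene counts after division by the size factors. Recovered totals ran from 33027230 to 61300021 reads on genes per library, with a median of 40950397. No libraries differed by counting noise alone. Groups were compared on log2(normalized count + 1) with limma, with all 18 libraries in 1 fit. A gene was called higher or lower at a p under 0.05 after Benjamini-Hochberg adjustment over all genes tested. This scale shrinks the changes of genes that have few counts.

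The labels were checked against the targeted gene and against a Y-linked gene. *Pla2g4a* had 697, 686 and 770.4 normalized counts in nonconfined cPLA_2_ WT and 548, 542 and 533 in nonconfined cPLA_2_ KO libraries, 1369, 1430.3 and 1321 (confined cPLA_2_ WT) and 923, 871 and 919.5 (confined cPLA_2_ KO). Within each of these treatments it was lower in every cPLA_2_ KO library than in every cPLA_2_ WT library (log2 fold change -0.41, standard error 0.059, adjusted p = 0.00019 in nonconfined and -0.60, standard error 0.059, adjusted p = 3.81e-08 in confined cells), but not absent. In LPS cells it had 1005, 969 and 967 in the libraries labelled cPLA_2_ WT and 1065, 1032 and 1028 in those labelled cPLA_2_ KO, so the latter were not lower. *Ddx3y*, a gene of the Y chromosome, had 949, 981 and 874 in nonconfined cPLA_2_ KO, 1036, 920.2 and 948 in confined cPLA_2_ KO and at most 3 in each nonconfined and confined cPLA_2_ WT library. In LPS cells it had 1271, 0 and 662 in the libraries labelled cPLA_2_ WT and 2, 1476 and 783 in those labelled cPLA_2_ KO. High and low *Ddx3y* thus followed the genotype in nonconfined and confined cells and not in LPS cells. Genotype and the sex of the donors cannot be told apart in nonconfined and confined cells. The LPS libraries were therefore pooled over their labels (mean of the label means against the mean of the nonconfined genotypes), and no genotype is compared within them. Over all genes, LPS cPLA_2_ WT replicate 2 was closest to LPS cPLA_2_ KO replicate 1, and LPS cPLA_2_ WT replicate 3 to LPS cPLA_2_ KO replicate 3 (mean chi-square per gene 6.08 and 7.49, where counting noise alone gives 1), against 12.4 to 59.2 for libraries that share an LPS label. The standard errors for LPS treat the 6 libraries as separate, which the sources used here do not establish.

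Levels of the 43 genes spanned a wide range. Per kilobase of exon, nonconfined cPLA_2_ WT libraries had a mean of 97870.0 normalized counts for *Psap*, 28230.0 for *Ctsd* and 10960.0 for *Ctsb* at the upper end. At the lower end stood *Tfeb* with 310.4, *Mcoln1* with 268.8, *Gaa* with 258.4, *Tfe3* with 165.2, *Atp6v1h* with 100.7, *Ctsk* with 50.98 and *Mitf* with 26.69 normalized counts per kilobase. Within groups the coefficient of variation had a median over the members of 2.04% and 4.02% for nonconfined cPLA_2_ WT and cPLA_2_ KO cells and of 3.34% and 3.47% for confined ones. It was 5.21% and 5.88% in LPS libraries labelled cPLA_2_ WT and cPLA_2_ KO. *Mitf* varied most in both nonconfined groups (18% and 17.1%), and *Ctsk* varied most in both LPS groups (46.0% and 23.7%). Together the members took 2.33% to 2.38% of all normalized counts in nonconfined cPLA_2_ WT, 2.40% to 2.48% in nonconfined cPLA_2_ KO and 2.24% to 2.28% in confined cPLA_2_ WT libraries. This share was 2.89% to 2.98% in confined cPLA_2_ KO and 1.66% to 1.83% in LPS libraries. *Psap* alone held much of it, 0.901% to 0.935% in nonconfined cPLA_2_ WT and 0.735% to 0.746% in confined cPLA_2_ WT libraries. Without *Psap* the members took 1.43% to 1.44% and 1.48% to 1.51% in nonconfined cPLA_2_ WT and cPLA_2_ KO libraries, 1.51% to 1.53% and 1.84% to 1.87% in confined ones and 1.22% to 1.32% with LPS. With or without *Psap* the highest were confined cPLA_2_ KO and the lowest LPS libraries, whereas confined cPLA_2_ WT libraries were below nonconfined cPLA_2_ WT ones with it and above them without it.

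Markers of cell types were summed to describe the cultures, and these sums do not show which cell types were present. DC markers (8 of 8 found, *Cd74* the most abundant) summed to means of 421136 and 483458 normalized counts in nonconfined cPLA_2_ WT and cPLA_2_ KO libraries and 374805 and 347572 in confined ones. They summed to 543200.3 and 545880.4 in LPS libraries labelled cPLA_2_ WT and cPLA_2_ KO. Of these 8 markers, 2 were called higher and 6 lower with confinement in cPLA_2_ WT, 1 and 7 in cPLA_2_ KO, and 6 and 1 with LPS. For the interaction 0 were higher and 4 lower. These and the marker counts below stand beside 28.2% higher and 28.4% lower of all genes with confinement in cPLA_2_ WT. The shares were 22.8% and 23.4% in cPLA_2_ KO, 37.2% and 34.3% with LPS, and 10.2% and 15.6% for the interaction. Neutrophil markers (9 of 9 found, *S100a9* the most abundant) summed to 242993 and 354184 in nonconfined cPLA_2_ WT and cPLA_2_ KO, 148834 and 337202 in confined cPLA_2_ WT and cPLA_2_ KO, and 297948 and 295410 in LPS libraries. All 9 were called lower with confinement in cPLA_2_ WT and 3 were in cPLA_2_ KO cells, and the interaction was called higher for all 9. Eosinophil markers (5 of 5, *Prg2* the most abundant) summed to 30880 and 72828 in nonconfined, 8341 and 21599 in confined, and 34813 and 35002 in LPS libraries. Within LPS cells this sum ran from 25438 to 43869, with LPS cPLA_2_ WT replicate 1 and LPS cPLA_2_ KO replicate 2 at the upper end. Mast cell and basophil markers (5 of 5, *Cpa3* the most abundant) went from 6226 to 2534 in cPLA_2_ WT and from 9377 to 4100 in cPLA_2_ KO cells and stood at 6011 and 6176 with LPS. Macrophage markers (10 of 10, *Csf1r* the most abundant) summed to between 53609 and 62085 in all groups, but single markers moved in opposite directions, with 3 called higher and 6 lower with LPS (*Marco* 4.94 and *Csf1r* -0.66 in log2 fold change). Osteoclast markers (8 of 8, *Car2* the most abundant, *Calcr* under 10 in every library) stood at 8762 and 10723 in nonconfined, 8304 and 8182 in confined, and 17419 and 17682 in LPS cells. Single osteoclast markers also moved in opposite directions, with 5 called higher and 2 lower with LPS (*Acp5* 3.38 and *Car2* 1.95, but *Mmp9* -1.23 and *Nfatc1* -1.21), 3 and 2 with confinement in cPLA_2_ WT and 3 and 4 in cPLA_2_ KO. T and B cell markers (*Cd3d* the most abundant) summed to at most 230.3, and erythroid markers (*Hbb-bt* the most abundant, *Hba-a2* and *Hbb-bs* under 10 in every library) to at most 146.8 on average. What part other cell types had in the lysosomal gene changes was not tested, and in bulk RNA fewer cells of a type and less RNA per cell cannot be told apart.

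Confinement was followed by higher levels of most of the 43 genes. In cPLA_2_ WT cells 29 members were called higher and 5 lower, against 28.2% and 28.4% of all genes tested. In cPLA_2_ KO cells 32 were higher and 2 lower, against 22.8% and 23.4% of all genes. Members had a median log2 fold change of 0.33 (cPLA_2_ WT) and 0.31 (cPLA_2_ KO), beside -0.0055 and 0.010 over all genes. Of the members, 25 were called higher in both genotypes (which share no control libraries), 2 lower in both, 4 higher in cPLA_2_ WT and uncalled in cPLA_2_ KO, 5 higher in cPLA_2_ KO and uncalled in cPLA_2_ WT, 1 lower in cPLA_2_ WT and uncalled in cPLA_2_ KO, and 2, *Tfeb* and *Atp6v0a1*, lower in cPLA_2_ WT and higher in cPLA_2_ KO, and 4 were called in neither. The interaction, which tests whether the response to confinement differs between genotypes, was called for 15 members. The response was higher in cPLA_2_ KO for 9 and lower for 6, against 10.2% and 15.6% of all genes, and the median interaction was 0.045 beside 0.051 over all genes. With LPS, 28 members were called higher and 10 lower than in nonconfined cells, against 37.2% and 34.3% of all genes, with a median of 0.22 beside 0.020. With only the LPS libraries labelled cPLA_2_ WT these counts were 28 and 10, and with only those labelled cPLA_2_ KO 27 and 10. The share of all genes called in these fits is not given here.

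These counts depended on how the libraries were scaled. The mean total of normalized counts was 34125100 in nonconfined cPLA_2_ WT, 39890269 in confined cPLA_2_ WT and 48718670 in LPS libraries labelled cPLA_2_ WT. Scaling every library to the same total therefore moved the all-gene median, in log2 units, to -0.23 for confinement in cPLA_2_ WT, -0.46 for LPS and 0.24 for the interaction, and to -0.025 for confinement in cPLA_2_ KO cells. Under this scaling 22 members were higher and 16 lower with confinement in cPLA_2_ WT, against 20.0% and 41.3% of all genes, and 30 were higher and 2 lower in cPLA_2_ KO, against 20.8% and 25.9%. With LPS 9 were higher and 29 lower, against 20.4% and 56.8% of all genes, and for the interaction 26 were higher and 3 lower, against 26.5% and 11%. The members then had medians of 0.10 in cPLA_2_ WT, 0.28 in cPLA_2_ KO, -0.28 with LPS and 0.23 for the interaction. This scaling shifts all genes of a comparison by nearly the same amount, so that the turn from higher to lower calls with LPS, here and in the groups of genes below, is shared by genes in general, and the median of the members stayed above that of all genes with confinement and with LPS. With scaling by trimmed means of log ratios (TMM), 27 members were called higher and 5 lower with confinement in cPLA_2_ WT (26% and 30.8% of all genes), 28 and 2 in cPLA_2_ KO (19.9% and 25.9%), and 24 and 11 with LPS (34.1% and 37.2%).

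**Figure D1:**
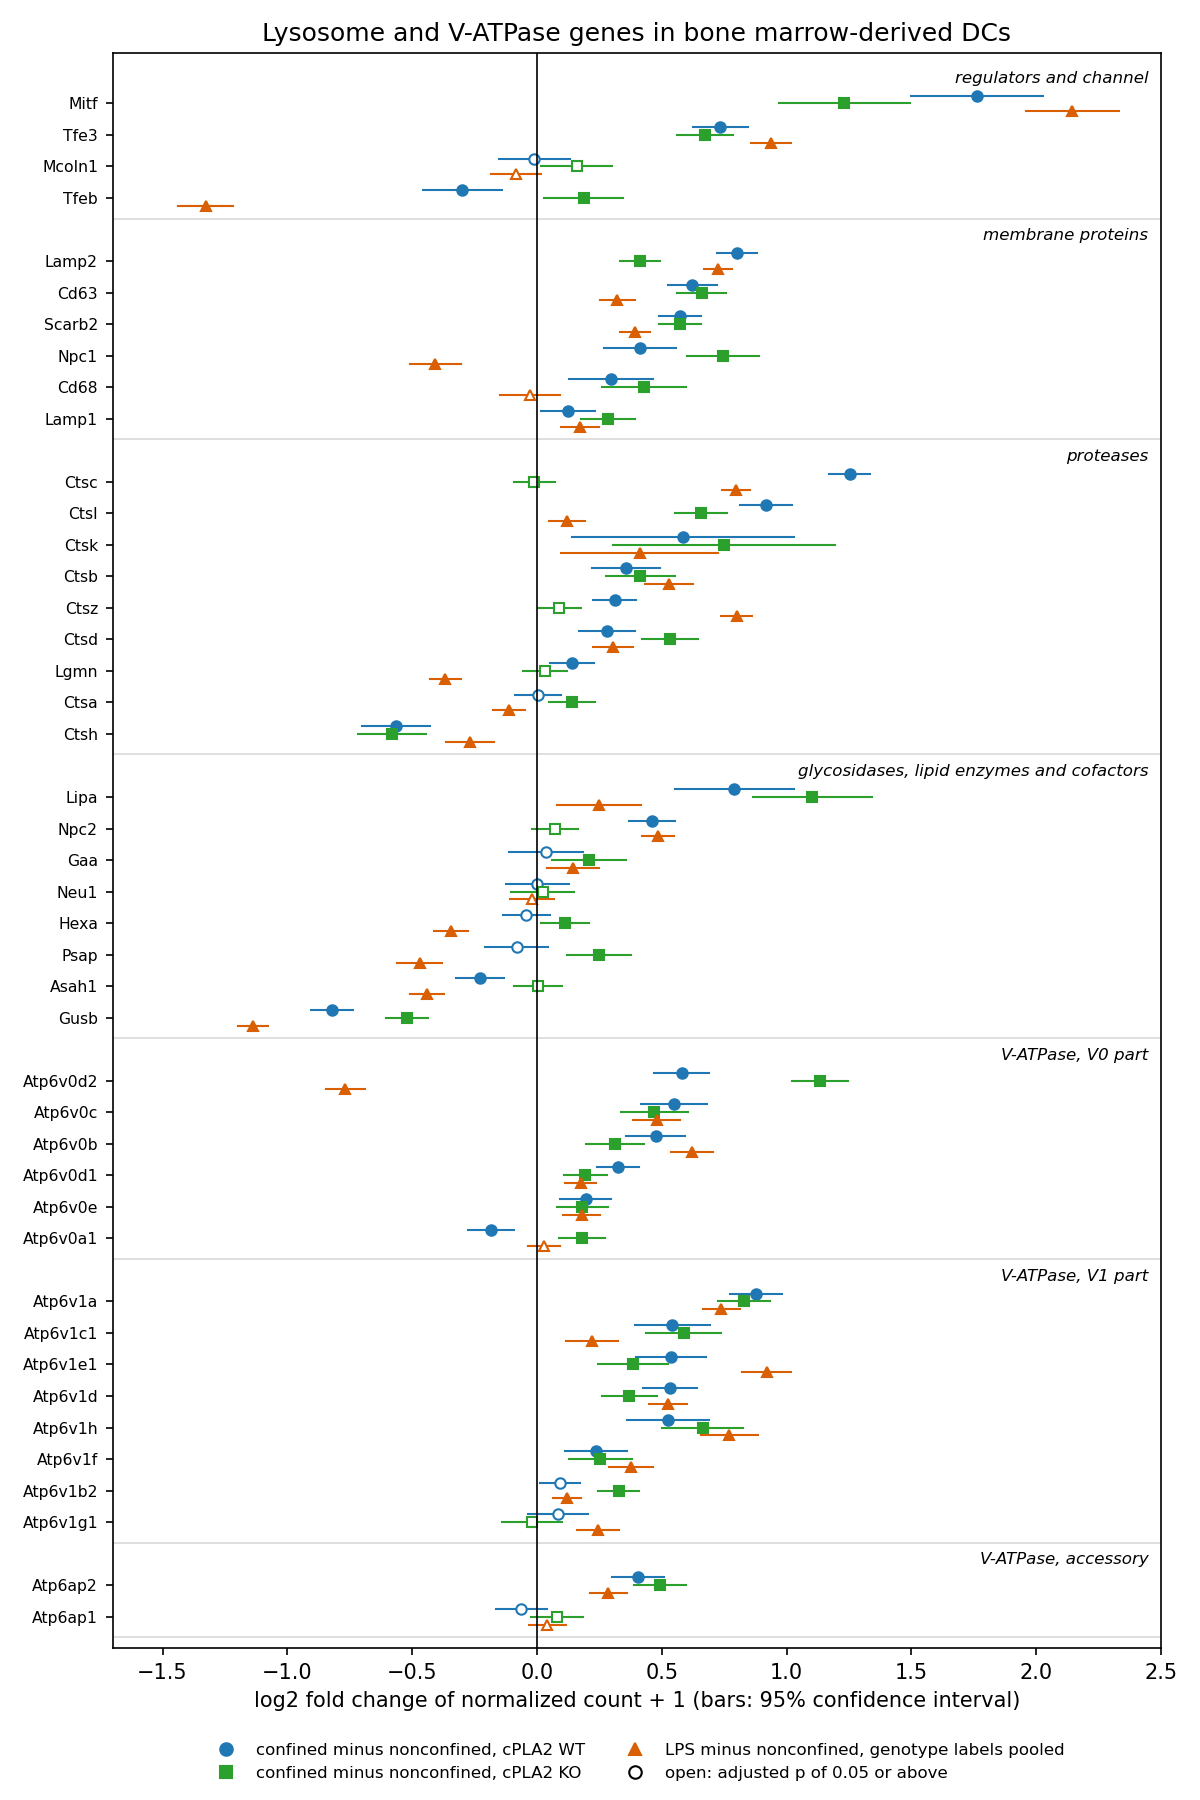
Log2 fold change of normalized count + 1 (horizontal axis) for each of the 43 genes (vertical axis, grouped by role), for confinement in cPLA_2_ WT (circles) and cPLA_2_ KO cells (squares) and for LPS with pooled labels (triangles), with 95% confidence intervals; filled symbols have an adjusted p under 0.05. Filled symbols lie to the right of 0 for 29 genes (cPLA_2_ WT), 32 genes (cPLA_2_ KO) and 28 genes (LPS), or for 22, 30 and 9 genes when every library is scaled to the same total.

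The regulators split. *Tfeb* (GSMG0023337, chr17:48047962-48103340, plus strand, GRCm39), the best known activator of lysosomal genes, had 2316, 2174 and 1906 normalized counts in nonconfined cPLA_2_ WT and 2478, 2186 and 2326 in nonconfined cPLA_2_ KO libraries. After confinement it had 1816, 1646 and 1727 in cPLA_2_ WT and 2778, 2667 and 2511 in cPLA_2_ KO libraries, and with LPS it had 809 to 967 (median 878). All confined cPLA_2_ WT libraries were below and all confined cPLA_2_ KO libraries above the nonconfined libraries of their genotype, and the LPS libraries were the lowest of all. *Tfeb* fell with confinement in cPLA_2_ WT cells (log2 fold change -0.30, standard error 0.076, adjusted p = 0.00199) and with LPS (-1.33, standard error 0.054, adjusted p = 1.63e-15). In cPLA_2_ KO cells it was called higher (0.19, standard error 0.076, adjusted p = 0.0486), but this call was lost without nonconfined cPLA_2_ KO replicate 2 or 3 or confined cPLA_2_ KO replicate 1 or 2, with log2 fold changes from 0.14 to 0.19 and an adjusted p of up to 0.178. It was lost as well with TMM scaling (0.14, adjusted p = 0.15), the same total per library (0.15), edgeR (0.18, adjusted p = 0.0505) and no filter on low values (adjusted p = 0.0793). The interaction of 0.49 (standard error 0.11, adjusted p = 0.00164) stayed called with each of 12 libraries left out in turn.

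*Tfe3*, a close relative of *Tfeb*, had 1618, 1471 and 1535 normalized counts in nonconfined cPLA_2_ WT and 1402, 1519 and 1476 in nonconfined cPLA_2_ KO libraries. It had 2603, 2483 and 2608 (confined cPLA_2_ WT), 2468, 2262 and 2286 (confined cPLA_2_ KO) and 2761 to 2981 (median 2901) with LPS. All confined and LPS libraries were above all nonconfined libraries. On the log2 scale the change was 0.73 (standard error 0.053, adjusted p = 1.31e-10) in cPLA_2_ WT, 0.67 (standard error 0.053, adjusted p = 1.28e-09) in cPLA_2_ KO and 0.94 (standard error 0.038, adjusted p = 1.54e-15) with LPS, and the interaction of -0.062 was not called (adjusted p = 0.609). *Mitf* (GSMG0044757, chr6:97784018-97998319, plus strand, GRCm39), the third member of this family, had 325, 229 and 258 in nonconfined cPLA_2_ WT and 200.6, 279 and 225 in nonconfined cPLA_2_ KO libraries, 928, 949 and 859.9 (confined cPLA_2_ WT), 630.2, 563 and 464 (confined cPLA_2_ KO) and 1044 to 1222 (median 1096) with LPS. Nonconfined, confined cPLA_2_ KO, confined cPLA_2_ WT and LPS libraries followed each other upwards without overlap. *Mitf* had the largest increases of the 43 genes with confinement in both genotypes and with LPS, with log2 fold changes of 1.76 (standard error 0.13, adjusted p = 1.09e-10) in cPLA_2_ WT, 1.23 (standard error 0.13, adjusted p = 6.76e-08) in cPLA_2_ KO and 2.14 (standard error 0.089, adjusted p = 2.94e-15) with LPS. Its interaction of -0.53 (standard error 0.18, adjusted p = 0.0327) was lost without nonconfined cPLA_2_ WT replicate 2 or 3, nonconfined cPLA_2_ KO replicate 2, confined cPLA_2_ WT replicate 1 or 2 or confined cPLA_2_ KO replicate 3 (-0.52 to -0.40, adjusted p up to 0.107) and with the same total per library (-0.34, adjusted p = 0.149).

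*Mcoln1*, which encodes the calcium-permeable lysosomal channel TRPML1, had 2144, 2076 and 2037 normalized counts in nonconfined cPLA_2_ WT and 2196, 1961 and 2059.8 in confined cPLA_2_ WT libraries, which overlapped. It had 2123, 2214 and 2137 in nonconfined cPLA_2_ KO and 2562, 2259.6 and 2415 in confined cPLA_2_ KO libraries, with no overlap, and 1799 to 2179.7 (median 2008) with LPS, within the range of nonconfined and confined cells at its upper end. Neither its changes with confinement nor that with LPS were called with the deposited normalization (log2 fold change -0.010 in cPLA_2_ WT, adjusted p = 0.913; 0.16 in cPLA_2_ KO, adjusted p = 0.0608; -0.085 with LPS, adjusted p = 0.117). With the same total per library it was called lower in cPLA_2_ WT (-0.24) and with LPS (-0.58). It was called higher in cPLA_2_ KO cells without confined cPLA_2_ KO replicate 2 (0.21, adjusted p = 0.032). It was called lower with LPS without LPS cPLA_2_ WT replicate 1 or LPS cPLA_2_ KO replicate 2 (adjusted p down to 0.0365) and with TMM scaling (-0.15). Of these 4 genes, 2 were called higher and 1 lower with confinement in cPLA_2_ WT (28.2% and 28.4% of all genes), 3 and 0 in cPLA_2_ KO (22.8% and 23.4%) and 2 and 1 with LPS (37.2% and 34.3%). The same total gave 2 and 2 (20.0% and 41.3%), 2 and 0 (20.8% and 25.9%), and 2 and 2 (20.4% and 56.8%).

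**Figure D2:**
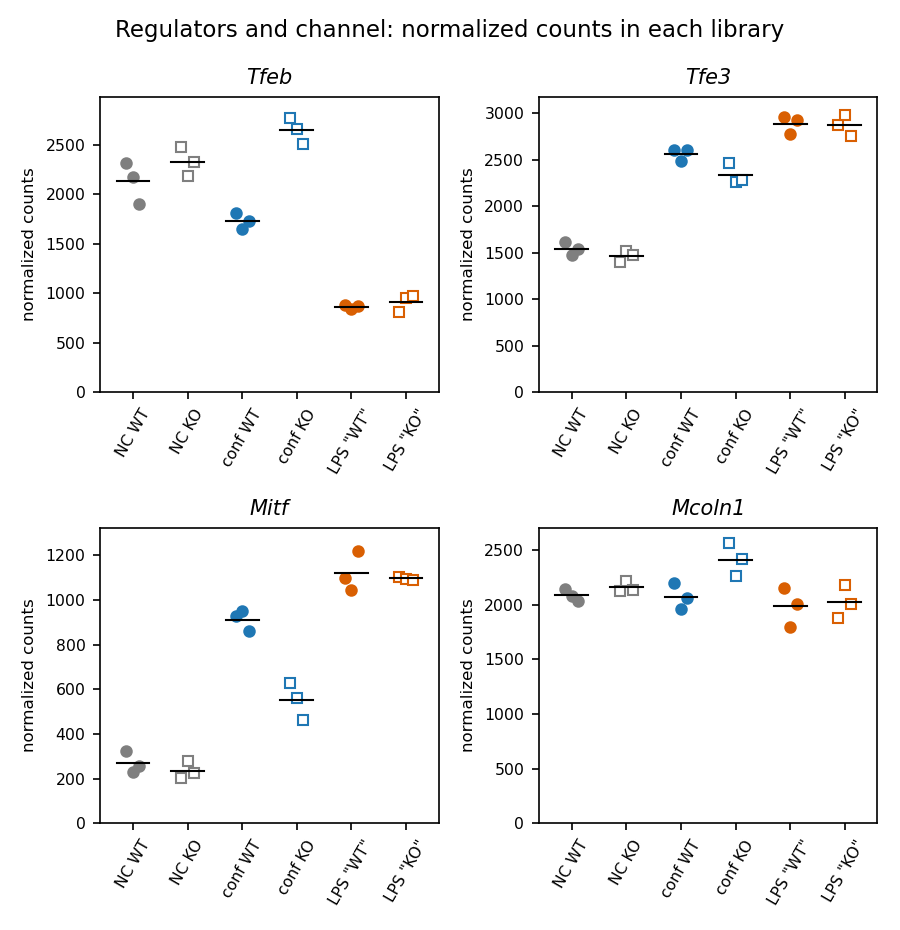
Normalized counts (vertical axes, from 0) of *Tfeb*, *Tfe3*, *Mitf* and *Mcoln1* in each of the 18 libraries, by condition (NC, nonconfined; conf, confined; LPS genotypes as labelled), with the mean of each group as a bar. *Mitf* reaches 860 to 949 in confined cPLA_2_ WT and 1044 to 1222 in LPS libraries from 200.6 to 325 in nonconfined ones, whereas *Tfeb* is lowest with LPS, at 809 to 967.

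All 6 lysosomal membrane proteins were called higher with confinement in both genotypes, where 28.2% (cPLA_2_ WT) and 22.8% (cPLA_2_ KO) of all genes were. The same total gave 4 higher and 1 lower in cPLA_2_ WT (20.0% and 41.3% of all genes) and 6 and 0 in cPLA_2_ KO (20.8% and 25.9%). With LPS 4 were higher and 1 lower (37.2% and 34.3%), or 1 and 5 with the same total (20.4% and 56.8%). *Lamp2* (GSMG0061515, chrX:37488524-37545338, minus strand, GRCm39), a heavily glycosylated protein of the lysosomal membrane, had 9403, 9242 and 9443 normalized counts in nonconfined cPLA_2_ WT and 9433, 9439 and 9040.2 in nonconfined cPLA_2_ KO libraries. It had 16637, 16199 and 16149.5 (confined cPLA_2_ WT), 12647, 12270.3 and 12218 (confined cPLA_2_ KO) and 14786 to 16046 (median 15541) in LPS libraries. Confined cPLA_2_ WT libraries were the highest, LPS libraries were next, and confined cPLA_2_ KO libraries lay between these and nonconfined cells, with no overlap. The change on the log2 scale was 0.80 (standard error 0.038, adjusted p = 1.05e-13) in cPLA_2_ WT and 0.41 (standard error 0.038, adjusted p = 1.43e-08) in cPLA_2_ KO cells, with an interaction of -0.39 (standard error 0.054, adjusted p = 8.72e-06), and 0.72 (standard error 0.027, adjusted p = 3.87e-16) with LPS. The interaction was -0.20 with the same total.

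*Npc1*, the membrane protein that exports cholesterol from lysosomes, had 10883, 10917 and 11063 normalized counts in nonconfined cPLA_2_ WT and 11835, 12500.0 and 12186 in nonconfined cPLA_2_ KO libraries. It had 14734, 14735 and 14332 (confined cPLA_2_ WT), 20969.9, 19464 and 20875 (confined cPLA_2_ KO) and 7639 to 10007 (median 8702) with LPS. Confined cPLA_2_ KO libraries were above all others and LPS libraries below all others. *Npc1* rose by 0.41 (standard error 0.069, adjusted p = 2.6e-05) in cPLA_2_ WT and 0.75 (standard error 0.069, adjusted p = 1.4e-08) in cPLA_2_ KO cells on the log2 scale, with an interaction of 0.33 (standard error 0.10, adjusted p = 0.0148), and was lower with LPS, at -0.41 (standard error 0.049, adjusted p = 1.58e-07). The interaction was 0.52 with the same total. *Lamp1* had 14948, 14638 and 14351 in nonconfined cPLA_2_ WT and 16445, 15389 and 16037 in confined cPLA_2_ WT libraries, 14652, 14973 and 14786 in nonconfined cPLA_2_ KO and 18319, 17499.6 and 18291 in confined cPLA_2_ KO libraries, and 15400.3 to 17999 (median 16574) with LPS. Its confined libraries were above the nonconfined ones without overlap, but the shift in cPLA_2_ WT was small, and LPS libraries lay among the confined ones. The log2 fold change in cPLA_2_ WT cells (0.12, standard error 0.052, adjusted p = 0.0486) was no longer called without nonconfined cPLA_2_ WT replicate 1, 2 or 3 or confined cPLA_2_ WT replicate 1 or 3 (adjusted p up to 0.154), and it was -0.10 with the same total per library. It was 0.28 (standard error 0.052, adjusted p = 0.00012) in cPLA_2_ KO cells and 0.17 with LPS (-0.32 with the same total). *Cd63*, *Scarb2* and *Cd68*, which encode a tetraspanin, the receptor that carries glucocerebrosidase to lysosomes and a glycoprotein of macrophage lysosomes, had log2 fold changes of 0.62, 0.57 and 0.30 in cPLA_2_ WT and 0.66, 0.57 and 0.43 in cPLA_2_ KO cells, and that of *Cd68* in cPLA_2_ WT was 0.072 and not called with the same total.

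Of the 9 proteases, 7 were called higher and 1 lower with confinement in cPLA_2_ WT, against 28.2% and 28.4% of all genes, and 5 higher and 1 lower in cPLA_2_ KO cells, against 22.8% and 23.4%. The same total gave 4 and 3 in cPLA_2_ WT, against 20.0% and 41.3%, and 5 and 1 in cPLA_2_ KO, against 20.8% and 25.9%. With LPS 6 were higher and 3 lower, against 37.2% and 34.3%, or 2 and 5 with the same total, near the 20.4% and 56.8% of all genes. *Ctsc* (GSMG0049459, chr7:87927293-87965069, plus strand, GRCm39), a dipeptidyl peptidase that activates granule proteases of leukocytes, had 7853, 8366 and 8177 normalized counts in nonconfined cPLA_2_ WT and 8533, 8572 and 8404 in nonconfined cPLA_2_ KO libraries. It had 19658, 19110.3 and 19361 (confined cPLA_2_ WT), 8766, 8107 and 8459.6 (confined cPLA_2_ KO) and 14102 to 14808 (median 14482) in LPS libraries. Confined cPLA_2_ WT libraries were above all others, LPS libraries came next, and confined cPLA_2_ KO libraries overlapped with nonconfined ones. *Ctsc* had the most negative interaction of the members, -1.26 (standard error 0.055, adjusted p = 8.14e-14), with 1.25 (standard error 0.039, adjusted p = 7.32e-17) in cPLA_2_ WT and -0.011 in cPLA_2_ KO cells (adjusted p = 0.847). With LPS the log2 fold change was 0.80 (standard error 0.028, adjusted p = 1.07e-16). The summed neutrophil markers, in contrast, were lowest in confined cPLA_2_ WT libraries, and their part in this difference was not tested.

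*Ctsl* and *Ctsk*, cysteine endopeptidases of which the latter is the collagen-degrading enzyme of osteoclasts, were singled out after their values were seen. *Ctsl* had 7261, 7053 and 7093 in nonconfined cPLA_2_ WT and 7451, 6841 and 7176 in nonconfined cPLA_2_ KO libraries, 13919.6, 13207 and 13335 (confined cPLA_2_ WT), 11408, 11199 and 11249 (confined cPLA_2_ KO) and 7505, 8488 and 7790.2 and 8135, 7279 and 7473 with LPS (labelled cPLA_2_ WT and cPLA_2_ KO). Its confined libraries were above all nonconfined and LPS libraries, and those of cPLA_2_ WT above those of cPLA_2_ KO. As log2 fold change this was 0.92 (standard error 0.049, adjusted p = 8.59e-13) in cPLA_2_ WT, 0.66 (standard error 0.049, adjusted p = 5.37e-10) in cPLA_2_ KO and 0.12 (standard error 0.035, adjusted p = 0.00401) with LPS, the last -0.38 with the same total per library and not called with TMM scaling (0.052, adjusted p = 0.227). Its interaction of -0.26 (standard error 0.070, adjusted p = 0.00795) was not called with the same total (-0.071, adjusted p = 0.476). *Ctsk* had 156, 153 and 141 in nonconfined cPLA_2_ WT and 289, 343 and 323 in nonconfined cPLA_2_ KO libraries, and 220.3, 214 and 244 (confined cPLA_2_ WT) and 483, 552 and 571 (confined cPLA_2_ KO). Every cPLA_2_ KO library was above every cPLA_2_ WT library of these treatments. With LPS it had 466, 194 and 262 in libraries labelled cPLA_2_ WT and 219, 347 and 337 in those labelled cPLA_2_ KO, and the library with the most *Ddx3y* counts under each label, LPS cPLA_2_ WT replicate 1 and LPS cPLA_2_ KO replicate 2, also had the most *Ctsk* counts under that label. The log2 fold change with confinement was 0.59 (standard error 0.21, adjusted p = 0.0237) in cPLA_2_ WT, lost without nonconfined cPLA_2_ WT replicate 3 or confined cPLA_2_ WT replicate 3 (down to 0.53, adjusted p up to 0.0759) and with the same total (0.36), and 0.75 (standard error 0.21, adjusted p = 0.00663) in cPLA_2_ KO cells. That with LPS, 0.41 (standard error 0.15, adjusted p = 0.0191), was lost without LPS cPLA_2_ WT replicate 1 or LPS cPLA_2_ KO replicate 3 (down to 0.24, adjusted p up to 0.0649) and was -0.083 with the same total.

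*Ctsd*, the major aspartic protease of lysosomes, had 79548, 77112 and 77684 normalized counts in nonconfined cPLA_2_ WT and 88781, 88071 and 90069.7 in nonconfined cPLA_2_ KO libraries, 98238, 93218 and 93439 (confined cPLA_2_ WT), 132939, 124603 and 128987 (confined cPLA_2_ KO) and 94228 to 112683 (median 103219.5) with LPS. Confined cPLA_2_ KO libraries were the highest, and nonconfined cPLA_2_ WT libraries the lowest. It rose by 0.28 (standard error 0.054, adjusted p = 0.000142) in cPLA_2_ WT and 0.53 (standard error 0.054, adjusted p = 6.03e-08) in cPLA_2_ KO cells on the log2 scale, with an interaction of 0.25 (standard error 0.077, adjusted p = 0.0187), but with the same total per library the change in cPLA_2_ WT was 0.056 and not called, and the interaction was 0.44. With LPS the log2 fold change was 0.31, and -0.19 with the same total. *Ctsz*, a carboxypeptidase, had 30217, 29522 and 28439.9 in nonconfined cPLA_2_ WT and 27986, 25948 and 27785 in nonconfined cPLA_2_ KO libraries, 38266, 35216 and 36043 (confined cPLA_2_ WT), 29488, 28508 and 28962 (confined cPLA_2_ KO) and 48188 to 50349.6 (median 49286) with LPS. LPS libraries were above all others, and confined libraries exceeded nonconfined ones in each genotype, by little in cPLA_2_ KO. The fitted log2 fold change was 0.31 (standard error 0.041, adjusted p = 1.36e-06) in cPLA_2_ WT, 0.090 in cPLA_2_ KO (adjusted p = 0.0819) and 0.80 (standard error 0.029, adjusted p = 2.95e-16) with LPS, and the interaction of -0.22 (standard error 0.059, adjusted p = 0.00715) was not called with the same total (-0.033, adjusted p = 0.642).

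*Ctsh*, an aminopeptidase, was the protease that fell with confinement in both genotypes, also with the same total per library. It had 7144, 7535 and 7633 normalized counts in nonconfined cPLA_2_ WT and 8627, 7961 and 8338 in nonconfined cPLA_2_ KO libraries, 5067, 4983 and 5031 (confined cPLA_2_ WT), 5543, 5530.0 and 5597 (confined cPLA_2_ KO) and 5809.5 to 7323 (median 6576) with LPS. Confined libraries were below all others, and LPS libraries overlapped with nonconfined cPLA_2_ WT libraries. Its log2 fold change was -0.56 (standard error 0.066, adjusted p = 2.03e-07) in cPLA_2_ WT, -0.58 (standard error 0.066, adjusted p = 2.71e-07) in cPLA_2_ KO and -0.27 (standard error 0.046, adjusted p = 2.44e-05) with LPS. *Lgmn*, the asparagine-specific endopeptidase legumain, had 7476, 7535 and 7350.5 in nonconfined cPLA_2_ WT and 8127, 7886 and 7994 in nonconfined cPLA_2_ KO libraries, 8594, 7967 and 8098 (confined cPLA_2_ WT), 8349.5, 7886 and 8308 (confined cPLA_2_ KO) and 5692 to 6312 (median 6028) with LPS. LPS libraries were below all others, confined cPLA_2_ WT libraries were above nonconfined cPLA_2_ WT ones, and confined cPLA_2_ KO libraries overlapped with nonconfined ones. On the log2 scale the change was 0.14 (standard error 0.043, adjusted p = 0.00796) in cPLA_2_ WT cells, a call lost without confined cPLA_2_ WT replicate 1 (0.11, adjusted p = 0.0557) and turned to -0.085 by the same total. It was 0.032 in cPLA_2_ KO cells (adjusted p = 0.579) and -0.37 (standard error 0.030, adjusted p = 4.13e-10) with LPS. The endopeptidase *Ctsb* and the carboxypeptidase *Ctsa* had log2 fold changes of 0.36 and 0.0050 in cPLA_2_ WT, 0.41 and 0.14 in cPLA_2_ KO and 0.53 and -0.11 with LPS, of which that of *Ctsa* in cPLA_2_ WT was not called (adjusted p = 0.937; -0.22 and called with the same total) and that in cPLA_2_ KO was lost without confined cPLA_2_ KO replicate 1 or 3 (down to 0.11, adjusted p up to 0.0691). That of *Ctsb* with LPS was 0.032 with the same total.

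Of the 8 glycosidases, lipid enzymes and cofactors, 2 were called higher and 2 lower with confinement in cPLA_2_ WT, near the 28.2% and 28.4% of all genes. In cPLA_2_ KO cells 4 were higher and 1 lower, beside 22.8% and 23.4%, and with LPS 3 and 4, beside 37.2% and 34.3%. The same total gave 2 and 6 in cPLA_2_ WT (20.0% and 41.3%), 3 and 1 in cPLA_2_ KO (20.8% and 25.9%), and 0 and 7 with LPS (20.4% and 56.8%). *Gusb* (GSMG0043035, chr5:130017862-130031891, minus strand, GRCm39), which encodes beta-glucuronidase, had 12759, 12706 and 12954 normalized counts in nonconfined cPLA_2_ WT and 12848, 13109 and 13413 in nonconfined cPLA_2_ KO libraries, 7666, 7036 and 7045 (confined cPLA_2_ WT), 9478, 8843 and 9134 (confined cPLA_2_ KO) and 5756 to 6004 (median 5884) with LPS. Nonconfined, confined cPLA_2_ KO, confined cPLA_2_ WT and LPS libraries followed each other downwards without overlap. On the log2 scale *Gusb* fell by 0.82 in cPLA_2_ WT (adjusted p = 1.98e-13), by 0.52 in cPLA_2_ KO (adjusted p = 9.95e-10) and by 1.14 with LPS (adjusted p = 4.02e-19), and the interaction was 0.30 (standard error 0.057, adjusted p = 0.000387), or 0.49 with the same total. *Lipa*, the acid lipase that frees cholesterol from its esters, had 4938, 4973 and 5013 in nonconfined cPLA_2_ WT and 4977, 5509.9 and 5363 in nonconfined cPLA_2_ KO libraries, 8575, 8431 and 8807 (confined cPLA_2_ WT), 11651, 10799 and 11594 (confined cPLA_2_ KO) and 4693 to 7535 (median 6280.2) with LPS. Confined cPLA_2_ KO libraries were above confined cPLA_2_ WT libraries, both were above all others, and LPS libraries overlapped with nonconfined ones. The change on the log2 scale was 0.79 (standard error 0.11, adjusted p = 4.29e-06) in cPLA_2_ WT and 1.10 (standard error 0.11, adjusted p = 7.66e-08) in cPLA_2_ KO cells, and the interaction of 0.31 was not called (adjusted p = 0.171), or was with the same total (0.50, adjusted p = 0.014). With LPS it was 0.25 (standard error 0.081, adjusted p = 0.00943), and -0.25 with the same total. The LPS libraries with the most *Lipa* were again LPS cPLA_2_ WT replicate 1 and LPS cPLA_2_ KO replicate 2.

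*Psap*, the precursor of the saposins that help to break down sphingolipids, had 320642, 306072 and 311059 normalized counts in nonconfined cPLA_2_ WT and 313371, 344388 and 331863 in nonconfined cPLA_2_ KO libraries, 303318, 288639 and 294359 (confined cPLA_2_ WT), 402794, 371714 and 401983 (confined cPLA_2_ KO) and 210225 to 250231 (median 234106) with LPS. Confined cPLA_2_ KO libraries were the highest, LPS libraries the lowest, and confined cPLA_2_ WT libraries just below nonconfined cPLA_2_ WT ones. As log2 fold change this was -0.081 in cPLA_2_ WT (adjusted p = 0.273), where the same total gave a called -0.31, and 0.25 (standard error 0.061, adjusted p = 0.00208) in cPLA_2_ KO cells, with an interaction of 0.33 (standard error 0.087, adjusted p = 0.00661) that was 0.52 with the same total, and -0.47 (standard error 0.043, adjusted p = 2.65e-09) with LPS. *Npc2*, the soluble partner of NPC1 in cholesterol export, differed between genotypes in the opposite sense. It had 24235, 24448 and 24458 in nonconfined cPLA_2_ WT and 26389, 23618 and 25823 in nonconfined cPLA_2_ KO libraries, 34933, 32624 and 33135 (confined cPLA_2_ WT), 26587, 26687 and 26459.7 (confined cPLA_2_ KO) and 33148 to 36303 (median 34625) with LPS. Confined cPLA_2_ WT and LPS libraries were above all others, and confined cPLA_2_ KO libraries were barely above nonconfined ones. The fitted log2 fold change was 0.46 (standard error 0.044, adjusted p = 1.12e-08) in cPLA_2_ WT, 0.074 in cPLA_2_ KO (adjusted p = 0.182) and 0.49 (standard error 0.031, adjusted p = 5.85e-12) with LPS (-0.012 with the same total), and the interaction was -0.39 (standard error 0.062, adjusted p = 6.1e-05), or -0.20 with the same total. Of the others, *Asah1*, the acid ceramidase, had a log2 fold change of -0.23 in cPLA_2_ WT and an interaction of 0.23 (0.42 with the same total), both called, and *Gaa*, *Hexa* and *Neu1*, which encode glycosidases, had log2 fold changes of 0.036, -0.042 and 0.0010 in cPLA_2_ WT cells, none of them called, but -0.19, -0.27 and -0.22 with the same total, all called. In cPLA_2_ KO cells *Gaa* (0.21, adjusted p = 0.0205) and *Hexa* (0.11, adjusted p = 0.0484) were called higher with the deposited normalization, and *Neu1* (0.024) was not called.

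The V-ATPase makes up 16 of the 43 genes. With confinement 12 of them were called higher and 1 lower in cPLA_2_ WT cells (median log2 fold change 0.44), against 28.2% and 28.4% of all genes, and 14 higher and 0 lower in cPLA_2_ KO cells (median 0.35), against 22.8% and 23.4%. The same total gave 10 and 4 in cPLA_2_ WT, against 20.0% and 41.3%, and 14 and 0 in cPLA_2_ KO, against 20.8% and 25.9%. With LPS 13 were higher and 1 lower (median 0.27), against 37.2% and 34.3%, or 4 and 10 with the same total, near the 20.4% and 56.8% of all genes. The interaction was called higher for 3 and lower for 0, beside 10.2% and 15.6% of all genes, or for 9 and 0 with the same total, beside 26.5% and 11%. Per kilobase of exon, nonconfined cPLA_2_ WT libraries had a mean of 4246 normalized counts for *Atp6v1f*, 2923 for *Atp6v0b* and 2695 for *Atp6v1b2*, and 351.1 for *Atp6v1c1* and 100.7 for *Atp6v1h* at the lower end.

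In the V0 part, 5 of 6 genes were called higher and 1 lower with confinement in cPLA_2_ WT (28.2% and 28.4% of all genes), 6 and 0 in cPLA_2_ KO (22.8% and 23.4%) and 4 and 1 with LPS (37.2% and 34.3%). The same total gave 4 and 1 in cPLA_2_ WT (20.0% and 41.3%), 6 and 0 in cPLA_2_ KO (20.8% and 25.9%) and 1 and 4 with LPS (20.4% and 56.8%). *Atp6v0d2* (GSMG0037813, chr4:19876838-19922606, minus strand, GRCm39), the d subunit isoform known from osteoclasts and macrophages, had 2854, 2764 and 3000.1 normalized counts in nonconfined cPLA_2_ WT and 3382, 3257 and 3306 in nonconfined cPLA_2_ KO libraries, 4438, 4209 and 4236 (confined cPLA_2_ WT), 7191, 7183 and 7439.9 (confined cPLA_2_ KO) and 1696 to 1987 (median 1777) with LPS. Confined cPLA_2_ KO libraries were far above all others, confined cPLA_2_ WT libraries came next, and LPS libraries were below all others. Its log2 fold change was 0.58 (standard error 0.053, adjusted p = 6.05e-09) in cPLA_2_ WT and 1.13 (standard error 0.053, adjusted p = 3.12e-13) in cPLA_2_ KO cells and -0.77 (standard error 0.038, adjusted p = 5.39e-14) with LPS, the largest decrease among the 16 V-ATPase members. Its interaction of 0.55 (standard error 0.075, adjusted p = 7.4e-06) was the highest of the 43 genes. *Atp6v0a1*, an isoform of the subunit that forms the proton path, had 16831, 15766 and 16355 in nonconfined cPLA_2_ WT and 17044, 17918 and 17889 in nonconfined cPLA_2_ KO libraries, 14242, 14250.0 and 14609.6 (confined cPLA_2_ WT), 20116, 19211 and 20541 (confined cPLA_2_ KO) and 16526 to 18362 (median 17002) with LPS. Confined cPLA_2_ WT libraries were below and confined cPLA_2_ KO libraries above all nonconfined ones, and LPS libraries overlapped with nonconfined ones. On the log2 scale the change was -0.18 (standard error 0.044, adjusted p = 0.00129) in cPLA_2_ WT and 0.18 (standard error 0.044, adjusted p = 0.00215) in cPLA_2_ KO cells, the interaction was 0.36 (standard error 0.063, adjusted p = 0.000134), or 0.55 with the same total, and the change with LPS was not called (0.028, adjusted p = 0.437; -0.47 with the same total). *Atp6v0b*, of the proton-carrying ring, had 6298, 6232 and 6255 in nonconfined cPLA_2_ WT and 7361, 6614 and 7177 in nonconfined cPLA_2_ KO libraries, 9128, 8299 and 8713 (confined cPLA_2_ WT), 8526, 9027 and 8698 (confined cPLA_2_ KO) and 9328 to 10952 (median 10302) with LPS. Confined libraries of the genotypes overlapped, above all nonconfined and below all LPS libraries. The change on the log2 scale was 0.48 (standard error 0.057, adjusted p = 2.92e-07) in cPLA_2_ WT, 0.31 (standard error 0.057, adjusted p = 0.000111) in cPLA_2_ KO and 0.62 (standard error 0.040, adjusted p = 5.99e-12) with LPS. *Atp6v0c*, *Atp6v0d1* and *Atp6v0e* had log2 fold changes of 0.55, 0.32 and 0.20 in cPLA_2_ WT and 0.47, 0.19 and 0.18 in cPLA_2_ KO cells, all called, though that of *Atp6v0e* in cPLA_2_ WT was -0.030 with the same total.

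In the V1 part, 6 of 8 genes were called higher and 0 lower with confinement in cPLA_2_ WT, 7 and 0 in cPLA_2_ KO and 8 and 0 with LPS, against 28.2% and 28.4%, 22.8% and 23.4%, and 37.2% and 34.3% of all genes. With the same total they numbered 5 and 2, 7 and 0, and 3 and 4, against 20.0% and 41.3%, 20.8% and 25.9%, and 20.4% and 56.8%. *Atp6v1a*, the catalytic subunit, had 6318, 6586 and 6255 normalized counts in nonconfined cPLA_2_ WT and 5769.9, 6690.3 and 6262 in nonconfined cPLA_2_ KO libraries, 11648, 11779 and 11761 (confined cPLA_2_ WT), 11125, 10725 and 11345 (confined cPLA_2_ KO) and 9851 to 11045 (median 10503) with LPS. All confined and LPS libraries were above all nonconfined ones, and LPS and confined cPLA_2_ KO libraries overlapped. It rose by 0.88 (standard error 0.050, adjusted p = 2.5e-12) in cPLA_2_ WT, 0.83 (standard error 0.050, adjusted p = 1.8e-11) in cPLA_2_ KO and 0.74 (standard error 0.035, adjusted p = 3.67e-14) with LPS on the log2 scale, and the interaction of -0.049 was not called (adjusted p = 0.675). *Atp6v1b2*, the nucleotide-binding partner of the catalytic subunit, had 17759.5, 18279.7 and 18149 in nonconfined cPLA_2_ WT and 18671, 17762 and 17743 in nonconfined cPLA_2_ KO libraries, 19433, 18936 and 19369 (confined cPLA_2_ WT), 22857, 21857 and 23264 (confined cPLA_2_ KO) and 18557 to 20226 (median 19698) with LPS. Confined cPLA_2_ KO libraries were above all others, and LPS libraries overlapped with nonconfined ones. As log2 fold change this was 0.092 in cPLA_2_ WT (adjusted p = 0.0504; called by edgeR at 0.12, and -0.13 with the same total), 0.33 (standard error 0.039, adjusted p = 5.4e-07) in cPLA_2_ KO and 0.12 with LPS (-0.38 with the same total), and the interaction was 0.24 (standard error 0.055, adjusted p = 0.00265), or 0.42 with the same total. *Atp6v1e1*, of the outer stalks, had 4026, 4040.2 and 4169 in nonconfined cPLA_2_ WT and 5152, 4590.2 and 4699 in nonconfined cPLA_2_ KO libraries, 6113, 5883 and 5771 (confined cPLA_2_ WT), 6479.6, 6114 and 6254 (confined cPLA_2_ KO) and 7548 to 9483 (median 8448) with LPS. LPS libraries were above all others and nonconfined libraries below all others. The fitted log2 fold change was 0.54 (standard error 0.067, adjusted p = 5.4e-07) in cPLA_2_ WT, 0.39 (standard error 0.067, adjusted p = 6.87e-05) in cPLA_2_ KO and 0.92 (standard error 0.047, adjusted p = 1.16e-13) with LPS.

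*Atp6v1d*, of the central stalk, had 2979, 2993 and 3041 normalized counts in nonconfined cPLA_2_ WT and 3322, 3041 and 3323 in nonconfined cPLA_2_ KO libraries, 4444, 4229 and 4367 (confined cPLA_2_ WT), 4433, 3970.0 and 4123 (confined cPLA_2_ KO) and 4217 to 4746 (median 4445) with LPS. Confined and LPS libraries were above all nonconfined ones and overlapped with each other. Its log2 fold change was 0.53 (standard error 0.052, adjusted p = 1.66e-08) in cPLA_2_ WT and 0.37 (standard error 0.052, adjusted p = 5.58e-06) in cPLA_2_ KO cells, and the interaction of -0.16 was not called (adjusted p = 0.118) except without nonconfined cPLA_2_ KO replicate 2 (-0.20, adjusted p = 0.044). With LPS it was 0.53, and 0.029 and not called with the same total. *Atp6v1g1*, another outer stalk gene, had 8216, 8326 and 8561 in nonconfined cPLA_2_ WT and 9723, 8342 and 9175 in nonconfined cPLA_2_ KO libraries, 9065, 8916 and 8607 (confined cPLA_2_ WT), 8716, 8981 and 9123 (confined cPLA_2_ KO) and 9508 to 11095 (median 10381) with LPS. Its groups lay close together, and nonconfined cPLA_2_ KO libraries overlapped with the confined ones and with LPS. It was not called with confinement (0.083 in cPLA_2_ WT, adjusted p = 0.235; -0.020 in cPLA_2_ KO, adjusted p = 0.806), and the same total gave -0.14 in cPLA_2_ WT. With LPS the log2 fold change was 0.24 (standard error 0.041, adjusted p = 1.62e-05), and -0.25 with the same total. *Atp6v1c1*, *Atp6v1f* and *Atp6v1h* had log2 fold changes of 0.54, 0.24 and 0.53 in cPLA_2_ WT and 0.59, 0.25 and 0.66 in cPLA_2_ KO cells, all called, though that of *Atp6v1f* in cPLA_2_ WT was 0.011 with the same total. Of the accessory genes, *Atp6ap2*, which also encodes the prorenin receptor, had 5121, 5177 and 5212 in nonconfined cPLA_2_ WT and 5536, 5286 and 5189 in nonconfined cPLA_2_ KO libraries, 6958, 6726 and 6854 (confined cPLA_2_ WT), 7627, 7046 and 7879 (confined cPLA_2_ KO) and 6044 to 6729 (median 6489) with LPS. Every confined and LPS library was above every nonconfined one. On the log2 scale the change was 0.40 (standard error 0.050, adjusted p = 4.63e-07) in cPLA_2_ WT, 0.49 (standard error 0.050, adjusted p = 5.32e-08) in cPLA_2_ KO and 0.29 with LPS (-0.21 with the same total). *Atp6ap1* had 9273, 8882 and 8897 in nonconfined cPLA_2_ WT and 9147, 9262 and 9176 in nonconfined cPLA_2_ KO libraries, 8800.1, 8666 and 8438 (confined cPLA_2_ WT), 10188, 9141 and 9873 (confined cPLA_2_ KO) and 8768 to 9823 (median 9592) with LPS. It was lower in every confined cPLA_2_ WT library than in every nonconfined cPLA_2_ WT library, but by little, and than in every cPLA_2_ KO library of both treatments. In confined cells it was called higher in cPLA_2_ KO (0.17, standard error 0.049, adjusted p = 0.00826). Nonconfined and confined cPLA_2_ KO libraries overlapped with nonconfined cPLA_2_ WT ones, and LPS libraries with all other groups. Its log2 fold changes with confinement and LPS were not called (-0.062 in cPLA_2_ WT, 0.081 in cPLA_2_ KO, 0.042 with LPS), but with the same total it was called lower in cPLA_2_ WT (-0.29) and with LPS (-0.45).

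**Figure D3:**
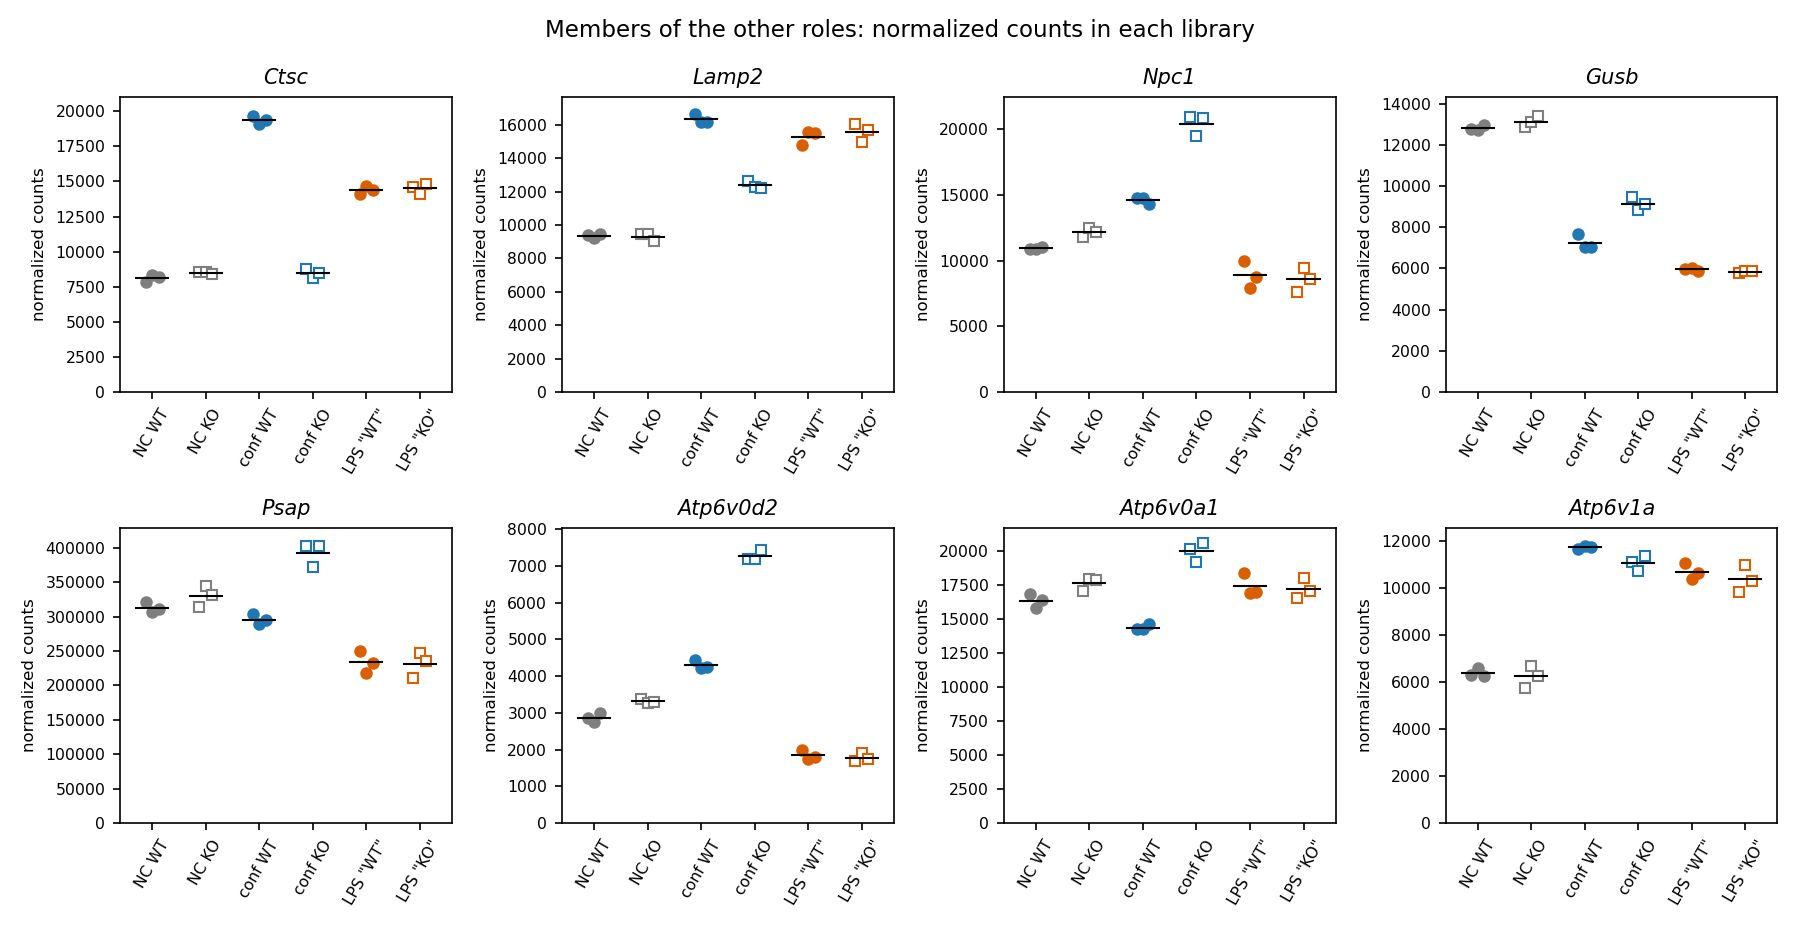
Normalized counts (vertical axes, from 0) of 8 members of the other roles in each of the 18 libraries, by condition (NC, nonconfined; conf, confined; LPS genotypes as labelled), with group means as bars. Confined cPLA_2_ WT libraries are the highest for *Ctsc* (19110 to 19658) and *Lamp2* (16150 to 16637), and confined cPLA_2_ KO libraries for *Npc1* (19464 to 20970), *Psap*, *Atp6v0d2* (7183 to 7440) and *Atp6v0a1*.

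Other genes of the lysosomal pathway were listed apart from the 43. Their counts stand beside 28.2% higher and 28.4% lower of all genes with confinement in cPLA_2_ WT, 22.8% and 23.4% in cPLA_2_ KO and 37.2% and 34.3% with LPS. Of 14 other V-ATPase subunits and assembly factors tested (19 listed, 5 with under 10 normalized counts in every library), 3 were called higher and 5 lower with confinement in cPLA_2_ WT, 5 and 4 in cPLA_2_ KO and 3 and 7 with LPS. Of 32 other hydrolases tested, 10 were higher and 17 lower in cPLA_2_ WT, 11 and 13 in cPLA_2_ KO and 8 and 18 with LPS. For 22 other membrane proteins and transporters the counts were 8 and 3 in cPLA_2_ WT, 13 and 2 in cPLA_2_ KO and 6 and 11 with LPS. For 19 genes of nutrient sensing at the lysosome they were 9 and 6, 11 and 3, and 9 and 6, and for 12 genes of sorting to the lysosome 4 and 5, 3 and 3, and 7 and 5. With the same total per library the counts, in the same order of lists, were 3 and 9, 6 and 21, 5 and 11, 6 and 8, and 2 and 7 with confinement in cPLA_2_ WT, where 20.0% of all genes were higher and 41.3% lower. With LPS they were 2 and 12, 4 and 28, 3 and 18, 3 and 14, and 3 and 9, where 20.4% of all genes were higher and 56.8% lower.

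Among V-ATPase assembly factors, *Ncoa7*, whose product binds the pump, had 3430.4, 3564 and 3352 normalized counts in nonconfined cPLA_2_ WT and 3323, 3407 and 3395 in nonconfined cPLA_2_ KO libraries, 6992, 6791 and 6910.4 (confined cPLA_2_ WT), 2885, 2777 and 2873 (confined cPLA_2_ KO) and 12044 to 13412 (median 12871) with LPS. It was above nonconfined cells in all confined cPLA_2_ WT and LPS libraries and below them in all confined cPLA_2_ KO libraries. The change on the log2 scale was 1.00 (standard error 0.043, adjusted p = 2.06e-14) in cPLA_2_ WT, -0.25 (standard error 0.043, adjusted p = 7.86e-05) in cPLA_2_ KO and 1.91 (standard error 0.031, adjusted p = 1.25e-22) with LPS, and the interaction was -1.25 (standard error 0.061, adjusted p = 5.86e-13). *Rogdi*, which encodes a partner of the complex that assembles the pump, had 9779, 8864 and 9360.1 in nonconfined cPLA_2_ WT and 10202, 9345 and 9284 in nonconfined cPLA_2_ KO libraries, 3086, 2909.5 and 3158 (confined cPLA_2_ WT), 3899, 3715 and 3972 (confined cPLA_2_ KO) and 3839 to 5269 (median 4681) with LPS. Confined and LPS libraries were below all nonconfined ones, and LPS libraries overlapped with confined cPLA_2_ KO ones. It fell by 1.61 in cPLA_2_ WT, 1.31 in cPLA_2_ KO and 1.04 with LPS on the log2 scale. *Tcirg1*, the V0 a isoform of osteoclasts, rose by 0.45 in cPLA_2_ WT, 0.22 in cPLA_2_ KO and 0.98 with LPS. *Atp6v1g2*, a low-count subunit isoform, had log2 fold changes of -1.02 in cPLA_2_ WT and -0.88 with LPS, and *Wdr7*, which encodes another partner of the pump, -0.90 with LPS. With confinement *Atp6v1g2* had -0.35 in cPLA_2_ KO cells, and *Wdr7* had -0.26 in cPLA_2_ WT and 0.29 in cPLA_2_ KO cells, none of them called. The interactions of *Atp6v1g2* and *Wdr7* were called, but not without each of 10 and 7 of the 12 libraries (adjusted p up to 0.135 and 0.0921).

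Among hydrolases, *Sgsh*, a heparan sulfate sulfamidase, had 85, 97 and 92 normalized counts in nonconfined cPLA_2_ WT and 85, 62 and 76 in nonconfined cPLA_2_ KO libraries, 14, 29 and 39 (confined cPLA_2_ WT), 63, 59 and 62 (confined cPLA_2_ KO) and 5 to 16 (median 8) with LPS. It was low in all LPS and confined cPLA_2_ WT libraries, while confined cPLA_2_ KO libraries overlapped with nonconfined ones. As log2 fold change this was -1.83 (standard error 0.36, adjusted p = 0.000174) in cPLA_2_ WT and -3.14 (standard error 0.25, adjusted p = 3.03e-10) with LPS, and the interaction of 1.56 (standard error 0.51, adjusted p = 0.0278) was lost without each of 6 of 12 libraries (nonconfined cPLA_2_ WT replicates 2 and 3, nonconfined cPLA_2_ KO replicate 2, confined cPLA_2_ WT replicate 1 and confined cPLA_2_ KO replicates 1 and 3), with values from 1.14 to 1.55 and an adjusted p of up to 0.0873. *Acp5*, the tartrate-resistant phosphatase and an osteoclast marker, had 126, 129.6 and 109 in nonconfined cPLA_2_ WT and 87, 101 and 83 in nonconfined cPLA_2_ KO libraries, 174, 212 and 223 (confined cPLA_2_ WT), 137, 132 and 155 (confined cPLA_2_ KO) and 1026 to 1172 (median 1097) with LPS. The LPS libraries stood far above all others. The fitted log2 fold change was 3.38 (standard error 0.081, adjusted p = 1.69e-19) with LPS, 0.73 in cPLA_2_ WT and 0.64 in cPLA_2_ KO cells. *Gla*, *Galc* and *Arsb*, which encode alpha-galactosidase, galactosylceramidase and arylsulfatase B, had log2 fold changes of 1.27, 1.05 and -1.09 in cPLA_2_ WT and 1.04, 0.37 and -0.97 in cPLA_2_ KO cells, and *Galc* and the ribonuclease gene *Rnaset2a* had interactions of -0.69 and -0.62. *Manba*, beta-mannosidase, fell by 1.69 with LPS.

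Among channels and transporters, *Mcoln2*, a relative of *Mcoln1*, had 784, 729.9 and 735 normalized counts in nonconfined cPLA_2_ WT and 924, 959.7 and 975 in nonconfined cPLA_2_ KO libraries, 3237, 3430.0 and 3239.6 (confined cPLA_2_ WT), 2081, 1959.9 and 2166 (confined cPLA_2_ KO) and 3552 to 5666 (median 4629.6) with LPS. Nonconfined, confined cPLA_2_ KO, confined cPLA_2_ WT and LPS libraries followed each other upwards without overlap. Its log2 fold change was 2.14 (standard error 0.12, adjusted p = 2.84e-12) in cPLA_2_ WT, 1.12 (standard error 0.12, adjusted p = 1.93e-07) in cPLA_2_ KO and 2.44 (standard error 0.087, adjusted p = 1.94e-16) with LPS, and the interaction was -1.02 (standard error 0.17, adjusted p = 0.000119). *Slc11a1*, the metal ion transporter of phagosomes, had 799, 842 and 831 in nonconfined cPLA_2_ WT and 1403, 1409 and 1380.0 in nonconfined cPLA_2_ KO libraries, 2720.2, 2604 and 2800.2 (confined cPLA_2_ WT), 4178, 4028 and 4228 (confined cPLA_2_ KO) and 2314 to 5465 (median 3937) with LPS. Confined libraries were above all nonconfined ones, those of cPLA_2_ KO above those of cPLA_2_ WT in both treatments, and its LPS libraries spread widely, with LPS cPLA_2_ WT replicate 1 and LPS cPLA_2_ KO replicate 2 at the top. On the log2 scale the change was 1.72 in cPLA_2_ WT, 1.57 in cPLA_2_ KO and 1.77 with LPS. *Clcn7*, a chloride-proton exchanger, rose by 0.63 in cPLA_2_ WT, 0.51 in cPLA_2_ KO and 1.39 with LPS. *Tpcn2*, a cation channel, had an interaction of 0.64, and that of its relative *Tpcn1*, 1.00, was lost without nonconfined cPLA_2_ KO replicate 1 or confined cPLA_2_ WT replicate 2 (down to 0.86, adjusted p up to 0.055).

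In nutrient sensing, *Tfec*, a further relative of *Tfeb*, had log2 fold changes of 0.75 in cPLA_2_ WT, 0.99 in cPLA_2_ KO and 1.24 with LPS. *Bhlhe40*, which encodes a repressor that binds similar E-boxes, had 0.89, 0.34 and 1.03, with an interaction of -0.54. *Fnip2*, a folliculin partner, rose by 0.50 in cPLA_2_ WT and 1.03 in cPLA_2_ KO cells, with an interaction of 0.53. Its log2 fold change with LPS was -0.26. *Lamtor1*, a Ragulator subunit, had an interaction of 0.37, its relative in this complex *Lamtor4* fell by 1.29 with LPS, and the Rag GTPase gene *Rragb*, at few counts, had log2 fold changes of -1.79 in cPLA_2_ WT and -2.55 with LPS. In sorting, the adaptor gene *Gga2* and the mannose 6-phosphate receptor gene *M6pr* rose by 1.44 and 0.95 in cPLA_2_ WT and 0.86 and 0.62 in cPLA_2_ KO cells, with interactions of -0.57 and -0.34, and by 0.93 and 1.28 with LPS. *Nagpa*, which encodes the enzyme that uncovers the mannose 6-phosphate signal, fell by 0.77 in cPLA_2_ WT and 0.91 with LPS, and the sorting receptor gene *Sort1* had an interaction of 0.57. Except where stated, all of these changes had an adjusted p under 0.05 from limma.

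Genotypes were also compared within each treatment. In nonconfined cells 8 members were called higher and 0 lower in cPLA_2_ KO cells, against 4.78% and 4.11% of all genes, with a median of 0.10 beside -0.0016 over all genes. This count changed when single libraries were left out. It was 5, 2 or 4 without nonconfined cPLA_2_ WT replicate 1, 2 or 3 and 1 or 3 without nonconfined cPLA_2_ KO replicate 1 or 3, and it was 11 without nonconfined cPLA_2_ KO replicate 2. The share of all genes called in these fits is not given here, so these counts are not read against other genes. The largest difference was that of *Ctsk* (1.08, standard error 0.21, adjusted p = 0.00293), which was called with each library left out. In confined cells 24 members were higher and 6 lower in cPLA_2_ KO cells, against 18.8% and 20.6% of all genes, with a median of 0.16 beside 0.041. The same total per library moved the median of all genes to 0.19 and the counts to 34 and 5, against 33.6% and 14.6% of all genes. Higher in confined cPLA_2_ KO were *Ctsk* (1.24, standard error 0.21, adjusted p = 7.58e-05), *Atp6v0d2* (0.76), *Tfeb* (0.62), *Npc1* (0.48) and *Atp6v0a1* (0.47). Lower were *Ctsc* (-1.20, standard error 0.039, adjusted p = 2.33e-16), *Mitf* (-0.73) and *Lamp2* (-0.40). The marker counts that follow stand beside 4.78% higher and 4.11% lower of all genes in nonconfined and 18.8% and 20.6% in confined cells. Neutrophil markers were higher in confined cPLA_2_ KO for 9 of 9 genes and in nonconfined cPLA_2_ KO for 6 of 9. Eosinophil markers were higher for 4 of 5 and lower for 1 in both treatments, mast cell and basophil markers higher for 4 of 5 in both, and macrophage markers higher for 5 of 9 tested in nonconfined cPLA_2_ KO (*Marco* 2.21) and for 4, with 1 lower, in confined cPLA_2_ KO. Osteoclast markers were higher for 1 and lower for 2 of 7 tested in nonconfined cPLA_2_ KO (*Mmp9* 2.03, *Acp5* -0.43) and higher for 2 and lower for 4 in confined cPLA_2_ KO (*Mmp9* 2.59, *Car2* -1.13 and *Tnfrsf11a* -0.61), whereas *Ctsk* and *Atp6v0d2*, both known from osteoclasts, were higher. DC markers were higher for 2 and lower for 1 of 8 in nonconfined and higher for 2 and lower for 2 in confined cPLA_2_ KO (*Ccr7* -1.88). What part cells of these types, or the sex of the donors, had in the differences was not tested. By the methods of the study, nonadherent granulocytes are lost during the culture and only the semiadherent cells are taken.

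Confined cPLA_2_ WT and LPS cells were compared directly, with the LPS labels pooled. Confined cells were lysed 4 h after confinement began and LPS cells were collected the next day, so stimulus and time cannot be told apart here. Here 18 members were called higher and 14 lower in confined cells, against 24.5% and 29.8% of all genes, with a median of -0.029 beside -0.014. Without confined cPLA_2_ WT replicate 2, 9 were lower. With the same total per library the median of all genes was 0.27 and the counts were 31 and 2, against 45.1% and 15% of all genes. With edgeR 8 members were lower, where edgeR called 4414 genes lower in all and limma 5318. With only the LPS libraries labelled cPLA_2_ WT, 18 were higher and 12 lower, and with only those labelled cPLA_2_ KO 17 and 12. The share of all genes called in these fits, and in that without confined cPLA_2_ WT replicate 2, is not given here. The largest differences were those of *Atp6v0d2* (1.24, standard error 0.046, adjusted p = 2.53e-15), *Tfeb* (0.96, standard error 0.066, adjusted p = 5.6e-11), *Ctsl* (0.80) and *Npc1* (0.75), higher in confined cells, and of *Atp6v1e1* (-0.50) and *Ctsz* (-0.43), lower in confined cells.

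The promoters of the 43 genes were searched for the E-box letters CACGTG and for the longer TCACGTGA, the core of the motif that TFEB and its relatives are known to bind. Both read the same on both strands, and each copy of the longer one contains the shorter one. GENCODE promoters on GRCm39, from 250 bases before to 50 bases after the start of the gene's canonical transcript, were matched for all 43 members. Of these, 9 held CACGTG (20.9%) and 3 held TCACGTGA (6.98%), against 7.81% and 1.10% of the promoters of 21751 protein-coding genes. Of 105 other genes of the pathway, 28 held CACGTG (26.7%) and 12 held TCACGTGA (11.4%). More than 1 copy was found in 4 of the 9 member promoters. Stretches of 30 bases are shown for the promoters with TCACGTGA and for the others with more than 1 copy, in capitals where the letters match. They are those of *Atp6v0e* (chr17:26895361-26895390, plus strand), *Ctsb* (chr14:63359879-63359908, plus strand), *Mcoln1* (chr8:3550462-3550491, plus strand), *Atp6v0b* (chr4:117744536-117744565, minus strand), *Atp6v1h* (chr1:5153307-5153336, plus strand) and *Lamp1* (chr8:13209096-13209125, plus strand). The *Lamp1* promoter holds 4 copies in all, of which 2 are shown, and that of *Mcoln1* holds 2, of which 1 is shown. A match describes the letters and shows no binding.
Atp6v0e: tagcgcgccgaTCACGTGAgcctctgttga
Ctsb: gcggtcaagcaTCACGTGAcgaatcagccc
Mcoln1: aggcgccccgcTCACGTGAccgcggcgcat
Atp6v0b: ggtCACGTGgggtcggcgcatCACGTGcgc
Atp6v1h: gcggtCACGTGcggctgctCACGTGccaga
Lamp1: atatCACGTGgtccagcgccCACGTGatgc

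Of the genes with the longer motif, *Atp6v0e* and *Ctsb* were called higher with confinement in both genotypes, with log2 fold changes of 0.20 and 0.36 in cPLA_2_ WT and 0.18 and 0.41 in cPLA_2_ KO cells, and *Mcoln1* was called in neither (-0.010 and 0.16), or in cPLA_2_ KO without confined cPLA_2_ KO replicate 2 (0.21). Differences between these genes were not tested. With the same total per library *Atp6v0e* stood at -0.030 in cPLA_2_ WT.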

How the data were processed

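The signal values used are gene counts divided by size factors, as deposited by the authors. According to the submitters' processing notes, reads were aligned with STAR 2.7.5a to mm39 (GRCm39), counted over Mouse FAST DB genes with featureCounts 1.5.0 and normalized with DESeq2. All 18 columns were mapped to samples by their names (columns not mapped: 0). Dividing each column by its smallest value above 0 gave whole reads for 100% of values (tolerance 0.01), used for depth and for the count-based tests. limma 3.58.1 (R 4.3.3, a mean per group, trended moderated variance) was run on log2(normalized count + 1), with Benjamini-Hochberg adjustment over the 17875 genes tested in each comparison, and was tested on simulated data. The deposited values are not raw counts, so edgeR 4.0.16 and DESeq2 1.42.0 on recovered reads served as alternatives. For confinement in cPLA_2_ WT cells limma called 10113 genes, edgeR 10102 and DESeq2 10267. Comparisons of each treatment with nonconfined cPLA_2_ WT cells share these controls, and the genotype comparisons share libraries with them. The LPS comparison also uses the nonconfined cPLA_2_ KO libraries, which it shares with confinement in cPLA_2_ KO cells.

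Members and lists were chosen with earlier results of these data known. Values in every library are given for the 4 regulator and channel genes and, in each other role, for the members with the highest and lowest log2 fold change for confinement in cPLA_2_ WT cells, the interaction and LPS. Genes of the other lists are named where they are among the 3 called genes of a list with the largest absolute change in those comparisons. Other settings tried were pseudocounts of 0.5 and 5, no filter on low values, a filter at 100 normalized counts, scaling to the same total and by TMM, only the compared groups in the fit, a replicate block, an added threshold on the absolute log2 fold change of 1, LPS labels apart, and each library left out. Some entries of the table combine genes that overlap and share reads, as for *Glb1* and *Tmppe*. Figures were drawn with matplotlib 3.10.9.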

Additional observations from a re-analysis of the deposited data

Results flagged for a closer look

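For 15 members the response to confinement differed between cPLA_2_ WT and cPLA_2_ KO cells, as shown by the test of the difference between the genotypes' responses (log2 fold change in cPLA_2_ KO minus that in cPLA_2_ WT). The response was higher in cPLA_2_ KO for 9 and lower for 6 of the 43, where 10.2% and 15.6% of all genes were called, so that the share of members that were lower is near that of all genes. Lower in cPLA_2_ KO were the responses of *Ctsc* (-1.26), *Mitf* (-0.53), *Lamp2* (-0.39), *Npc2* (-0.39), *Ctsl* (-0.26) and *Ctsz* (-0.22). Higher in cPLA_2_ KO were those of *Asah1* (0.23), *Atp6v1b2* (0.24), *Ctsd* (0.25), *Gusb* (0.30), *Psap* (0.33), *Npc1* (0.33), *Atp6v0a1* (0.36), *Tfeb* (0.49) and *Atp6v0d2* (0.55). The same total per library shifted these values upwards. It gave, in the same order, -1.08, -0.34, -0.20, -0.20, -0.071 and -0.033 for the former, of which those of *Mitf*, *Ctsl* and *Ctsz* were no longer called, and 0.42, 0.42, 0.44, 0.49, 0.52, 0.52, 0.55, 0.67 and 0.74 for the latter. Over all members 26 were then called higher and 3 lower, beside 26.5% and 11% of all genes.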

How the results depend on the processing

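The values followed are the 264 log2 fold changes of the named genes and of the other genes printed in the report. Through the other settings (2758 values), 2639 kept their direction and call, 39 lost and 35 gained a call, 23 changed sign without a call in either setting and 22 reversed, all 22 with the same total per library. With 1 library left out (2280 values), 2182 kept both, 73 lost and 5 gained a call, 20 changed sign without a call and 0 reversed. The reversed values for confinement in cPLA_2_ WT were *Gaa* -0.19, *Lgmn* -0.085, *Atp6v0e* -0.030, *Neu1* -0.22, *Rnaset2a* -0.090, *Ctsa* -0.22, *Sort1* -0.22, *Atp6v1g1* -0.14, *Lamp1* -0.10 and *Atp6v1b2* -0.13. Those among the followed values for LPS were *Atp6v0a1* -0.47, *Npc2* -0.012, *Ctsl* -0.38, *Lipa* -0.25, *Ctsk* -0.083, *Atp6v1g1* -0.25, *Ctsd* -0.19, *Lamp1* -0.32, *Atp6v1b2* -0.38, *Atp6ap2* -0.21, *Atp6ap1* -0.45 and *Gla* -0.13. Over all 43 members, with LPS 30 had a log2 fold change above 0 with the deposited normalization and 11 with the same total, and with confinement in cPLA_2_ WT 34 and 26. Counts of members that the same total moved by more than 1.5 times, or from 0, were lower with confinement in cPLA_2_ WT (16), the interaction (26 higher, 3 lower), LPS (9 higher, 29 lower), lower in nonconfined cPLA_2_ KO (1) and confined cPLA_2_ WT against LPS (31 higher, 2 lower). With an absolute log2 fold change above 1 as a further condition the counts were 2 higher and 0 lower for confinement in cPLA_2_ WT, 3 and 0 in cPLA_2_ KO, 0 and 1 for the interaction, 1 and 2 for LPS, 1 higher in nonconfined cPLA_2_ KO, 1 and 1 in confined cPLA_2_ KO, and 1 and 0 for confined cPLA_2_ WT against LPS. The share of all genes that met this condition is not given here, so these counts are not read against other genes. The count higher in nonconfined cPLA_2_ KO was 5 with no filter and 15 with only the compared groups in the fit. The share of all genes in these fits is not given here. DESeq2 gave 1 member lower in nonconfined cPLA_2_ KO, where it called 948 genes lower in all and limma 734. For confined cPLA_2_ WT against LPS edgeR gave 8 members lower, where it called 4414 genes lower in all and limma 5318. With 1 library left out, the count higher in nonconfined cPLA_2_ KO ran from 1 to 11 and that lower in confined cPLA_2_ WT against LPS from 9 to 15. For the other counts these ranges were 27 to 29 higher and 5 lower for confinement in cPLA_2_ WT, 28 to 31 and 2 in cPLA_2_ KO, 9 to 10 and 5 to 6 for the interaction, 27 to 28 and 10 to 11 for LPS, 18 to 23 and 6 to 7 in confined cPLA_2_ KO, and 15 to 18 higher for confined cPLA_2_ WT against LPS. The share of all genes called with 1 library left out is not given here. The deviations of libraries with the same replicate number had correlations from -0.142 to 0.338 between groups. Those between confined cPLA_2_ WT and confined cPLA_2_ KO libraries were 0.338, 0.208 and 0.0402. With a replicate block 28 members were called higher in cPLA_2_ WT and 30 in cPLA_2_ KO, and the share of all genes called in this fit is not given here. In each case the cause was not tested. With 3 libraries per group, an uncalled change is not an absence of change. The groups may differ in the mix of other cells, in sex, in total RNA or in the time of collection, which these data cannot separate. The effect of depth on the calls was not tested, and the lowest value of a member in a library was 141 normalized counts, for *Ctsk*.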
